A study of Rattus norvegicus with 15 samples.

Results

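The second week of culture without retinoic acid (RA) was examined in H9c2 cells, a myoblast line from embryonic rat heart, by comparing 3 cultures harvested at day 14 (T14-RA) with 3 harvested at day 7 (T7-RA). These 6 libraries, of 15 in the series, were chosen by their labels alone, and the comparison ran over all 11574 genes of the deposited count table. The series holds 5 groups of 3 biological replicates sequenced as stranded mRNA libraries: T0, the pair at day 7 with and without RA (T7+RA, T7-RA) and the pair at day 14 (T14+RA, T14-RA). All groups were wild-type H9c2 cells, and T0 was harvested a day after seeding in medium with full serum. The T7 and T14 cultures were kept in low serum for 7 or 14 days, without RA or with RA at 1 µM added daily, and the sources used here do not say whether the cultures without RA received the solvent. The sample labels name the cells as myoblasts of the heart, and their cell line field counts upward from H9c2 after the day 0 samples while every title names H9c2.

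Low serum makes myoblasts leave the cell cycle, switch on the myogenic transcription factors, fuse into multinucleated myotubes and build sarcomeres, the contractile units made of thick myosin and thin actin filaments. Embryonic and fetal isoforms of myosin come early in this program, and calcium release units, the creatine kinase shuttle and enzymes of glycogen use accompany the maturing fibre. H9c2 cells, although of cardiac origin, are known to form myotubes with many traits of skeletal muscle.

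Library totals were between 666344 and 825712 counts in T7-RA and between 551209 and 823546 in T14-RA, with a median count per gene and library of 24. Levels are given as CPM, counts scaled to library size with the TMM factors of edgeR, and changes as the log2 of the T14-RA to T7-RA ratio with its standard error (SE). A gene was called at a Benjamini-Hochberg adjusted p-value under 0.001 in edgeR's quasi-likelihood test, fitted over all 5 groups. In simulated counts for these libraries, 32% of 200 genes given a second-week log2 change of 1 and 72% of 200 given one of 2 were called, so many changes in genes with few counts were beyond this depth. The 15 skeletal muscle markers measured of 21 listed summed to between 3876 and 4508 CPM in T7-RA and between 13491 and 14012 CPM in T14-RA. The 7 cardiomyocyte markers measured of 21 listed were Gata4, Gata6, Gja1, Gja5, Hand2, Popdc2 and Smyd2, and none was called. They summed to between 313 and 341 CPM in T7-RA and between 318 and 379 CPM in T14-RA, of which Gja1 alone made up a mean of 194 and 189 CPM, and their median log2 change was 0.57. Measured markers of other cells were few, with 2 of 11 for adipocytes, 3 of 13 for endothelium, 1 of 13 for leukocytes, 4 of 12 for cartilage and bone and 3 of 12 for neural cells, and none of them was called. In these bulk libraries more cells of a kind and more RNA per cell cannot be told apart.

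In the second week without RA, 342 genes were called (2.95% of those tested), 216 higher (1.87%) and 126 lower (1.09%) at day 14. The rises were larger than the falls, with a median log2 change of 1.32 among the higher genes and -0.84 among the lower ones. A change of at least 2 on the log2 scale was found in 65 of the genes that rose and in 4 of those that fell. The T14-RA and T7-RA values did not overlap in 341 of the 342 called genes, against 25.7% of all genes tested, and the exception was Mef2a. The calls rest on these same values, so the separation follows largely from the threshold and is no separate evidence. The median change of all genes was 0.003. Among genes with at least 10 counts in every library the calls were 108 higher and 101 lower, and at an adjusted p under 0.05 they were 486 and 416, so the excess of rises was small under both settings. The minimum of 10 counts removes genes near 0 at day 7, so the loss of rises there follows in part from the filter. With 1 library left out the calls were 143 higher and 74 lower without T7-RA replicate 1, 135 and 65 without T7-RA replicate 2, 147 and 60 without T14-RA replicate 1, 171 and 77 without T14-RA replicate 2, and 162 and 71 without T14-RA replicate 3.

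**Figure D1:**
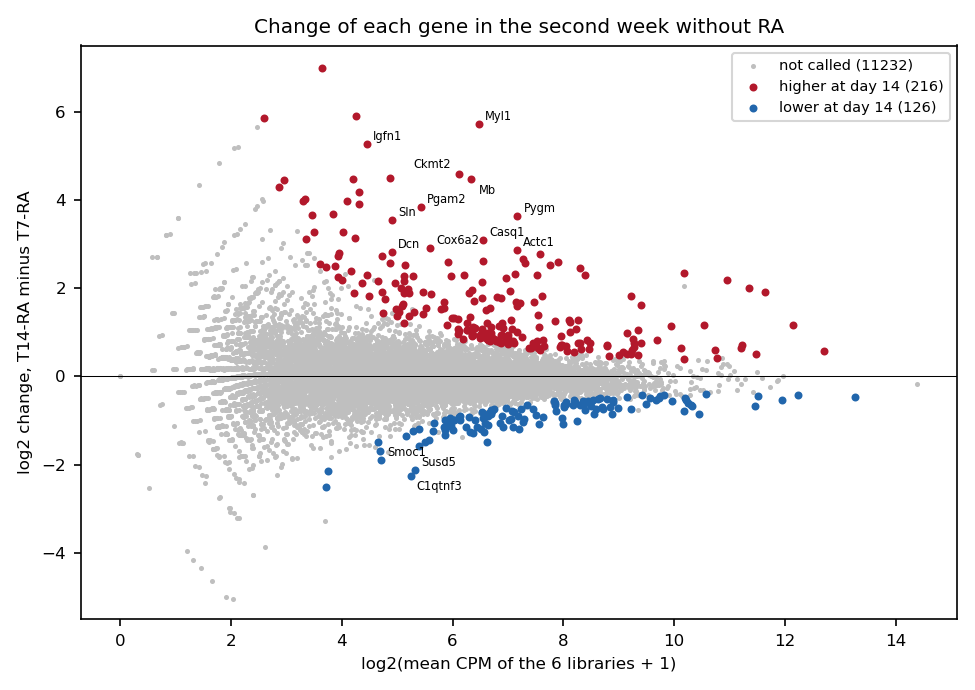
Log2 change between T7-RA and T14-RA (vertical) against the log2 of the mean CPM of the 6 libraries plus 1 (horizontal), 1 point per gene; red and blue points are the 216 genes called higher and the 126 called lower at day 14, and grey points were not called. Among the points that carry a gene symbol, Myl1 is the highest, at 5.73, and the lowest called point, Prss35, lies at -2.50.

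The genes that rose most encode proteins of the working muscle fibre. Myl1, a fast skeletal myosin light chain (9q32), was at 4.77, 1.34 and 2.91 CPM in the T7-RA cultures and at 177, 193 and 147 CPM in the T14-RA cultures, a log2 change of 5.73 (SE 0.31, edgeR adjusted p = 2.74e-23). Myoglobin (Mb, 7q34), the oxygen store of muscle, read 4.77, 5.38 and 10.2 CPM at day 7 and 136, 189.5 and 130.4 CPM at day 14, a log2 change of 4.47 (SE 0.30, edgeR adjusted p = 2.15e-19). Ckmt2, the sarcomeric mitochondrial creatine kinase (2q12), went from 3.58, 4.03 and 8.71 CPM to 122.5, 149 and 122 CPM, a log2 change of 4.58 (SE 0.32, edgeR adjusted p = 3.14e-18). In all of these genes every day 14 culture lay far above every day 7 culture. Only called genes whose days did not overlap were ranked, so the separation itself was a condition of entry. Casq1, the calsequestrin that stores calcium in the skeletal sarcoplasmic reticulum (13q24), read 22.7, 18.8 and 16.0 CPM at day 7 and 165, 168 and 164 CPM at day 14, a log2 change of 3.09 (SE 0.22, edgeR adjusted p = 1.74e-18).

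The list of the 12 largest rises went on mainly with muscle proteins. It was drawn from called genes with days that did not overlap and a mean of at least 20 CPM. These included Pgam2 (log2 change 3.84), the muscle phosphoglycerate mutase of glycolysis, Pygm (3.63), the muscle glycogen phosphorylase, Sln (3.54), the calcium pump regulator sarcolipin, Cox6a2 (2.91), a muscle subunit of cytochrome oxidase, Actc1 (2.87), an alpha-actin of heart and embryonic skeletal muscle, and Igfn1, which was near 0 at day 7. Dcn (2.82), the secreted collagen-binding proteoglycan decorin, was also among them. Dcn read 3.58, 2.69 and 16.0 CPM at day 7 and 56.5, 42.5 and 52.5 CPM at day 14, so that the day 7 cultures were uneven.

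A set of 18 called genes had at most 3 counts in every T7-RA library, while no called gene was at that floor in T14-RA. A gene at this floor at day 7 could be called only as a rise. The authors' filter on summed counts could let such genes in through the groups where they are high. The number of all tested genes at the floor on each day was not compared, so these counts do not show that more genes switched on than off. For Art3, an ADP-ribosyltransferase family member, all day 7 libraries were at 0 and the day 14 cultures read 24.0, 23.0 and 22.0 CPM, at least 5.77-fold higher with the floor set at 3 counts per library. Sohlh2, known as a germ cell transcription factor, was likewise at 0 at day 7 and at least 2.52-fold higher at day 14. Igfn1, an immunoglobulin-like protein of skeletal muscle, had 2 counts in all at day 7 and 81 at day 14, a ratio of scaled totals of 46.3 (95% exact interval 12.4 to 389). Xirp2, an actin-binding repeat protein, had 1 count against 76, a ratio of 86.8 (15.1 to 3470). Trdn, triadin, which anchors calsequestrin at the release channel, had 4 counts against 60 (ratio 17.1, interval 6.36 to 64.9), and Ampd1, the muscle AMP deaminase, had 4 against 69 (ratio 19.7, interval 7.36 to 74.4). Without molecular identifiers in the reads, the intervals hold for counting error alone. Other members were Abra, Acacb, Ampd3, Ankrd23, Art1, Ccr7, Hspb3, Lsmem1, Ndrg2, Ptp4a3 and Sspn, with ratios between 9.42 and 30.8.

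**Figure D2:**
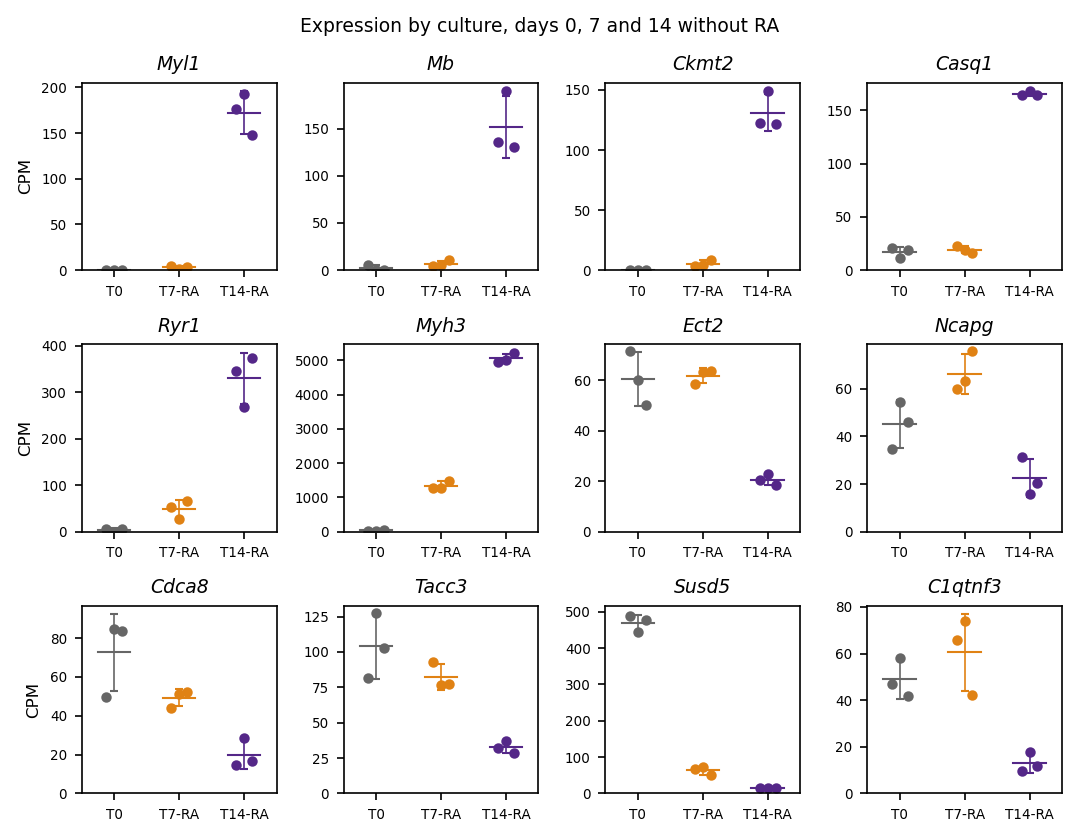
CPM (linear axes from 0) of 12 genes in the T0, T7-RA and T14-RA cultures, with a point for each culture, a line at the mean and bars of 1 SD (n = 3). Myl1, Mb, Ckmt2 and Casq1 stay near the base of their axes at T0 and day 7, and Ect2, Ncapg, Cdca8, Tacc3, Susd5 and C1qtnf3 have their lowest values at day 14.

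Among the sarcomeric myosins and troponins, 11 of 14 measured members rose and none fell, with a median log2 change of 1.77. Myh3, the embryonic myosin heavy chain, read 1263, 1261 and 1492 CPM at day 7 and 4937, 5021 and 5209 CPM at day 14 (log2 change 1.92, SE 0.10, edgeR adjusted p = 1.03e-24). Mylpf, the fast regulatory light chain, rose by 2.00 on the log2 scale, Myl4, the embryonic and atrial light chain, by 2.30, and Tnnt3, Tnni2 and Tnnc2, the fast troponins T, I and C, by 2.34, 2.52 and 1.62. The slow troponin I Tnni1 rose by 2.60, the cardiac troponin T Tnnt2 by 0.99, and Tnnc1, the troponin C of slow and cardiac muscle, by 0.83. The fetal myosin Myh8 (log2 change 1.54, edgeR adjusted p = 0.0939) and the slow troponin T Tnnt1 (log2 change 0.87, edgeR adjusted p = 0.157) did not pass the test. The list took 0.463% of all counts in T7-RA (SD 0.0243, n = 3) and 1.63% in T14-RA (SD 0.055, n = 3).

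Myh4, the adult fast IIb myosin heavy chain, had another course. It read 453, 396 and 457 CPM at T0, 196, 155 and 193 CPM in T7-RA and 491, 351 and 461 CPM in T14-RA. The change in the second week was 1.27 on the log2 scale (SE 0.13, edgeR adjusted p = 1.94e-10), and the day 14 cultures overlapped those of T0. Myh3, Myh4 and Myh8 share the band 10q24 and are close in sequence, so the counting could have moved reads between them.

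Genes of the thin filament, Z-disc, M-band and titin rose in 21 of 33 measured cases and none fell, with a median log2 change of 1.90, or 1.79 with genes at the floor set to their bound. Acta1, skeletal alpha-actin, read 693, 650.4 and 795 CPM at day 7 and 3375, 3084 and 3314 CPM at day 14 (log2 change 2.19, SE 0.10, edgeR adjusted p = 1.52e-26). The alpha-actinins that crosslink actin at the Z-disc rose, by 2.72 for Actn3 and 2.15 for Actn2 on the log2 scale. Myom2 (2.67) and Myom1 (1.77), which tie myosin at the M-band, rose, as did the myosin-binding proteins Mybph (2.45) and Mybpc1 (2.01). Des (1.92), the muscle intermediate filament desmin, Csrp3 (2.12) and Ldb3 (1.95) of the Z-disc, Unc45b (1.79), a myosin chaperone, and Lmod3 (1.68), which nucleates thin filaments, rose as well. The smallest rises in the list were those of the tropomyosins Tpm2 (1.17) and Tpm1 (0.60) and of Ankrd1 (0.51), a stress-responsive titin partner.

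Genes of excitation-contraction coupling and calcium stores rose in 15 of 33 measured cases and none fell, with a median log2 change of 0.65. Ryr1, the calcium release channel of skeletal muscle, read 52.5, 26.9 and 66.8 CPM at day 7 and 347, 269 and 374 CPM at day 14 (log2 change 2.77, SE 0.20, edgeR adjusted p = 6.34e-13). Its voltage sensor Cacna1s rose by 1.90 on the log2 scale, and the further components Cacnb1, Cacng1, Stac3 and Jsrp1 by 1.72, 1.47, 1.99 and 1.09. Cacna1c, the pore of the cardiac calcium channel, read 60.8, 52.4 and 62.5 CPM at day 7 and 80.5, 70.9 and 99.9 CPM at day 14 and did not pass the test (log2 change 0.51, edgeR adjusted p = 0.0891). The intracellular cation channels Tmem38a and Tmem38b rose by 1.55 and 2.14, the calcium-binding Hrc by 1.79, the cardiac calsequestrin Casq2 by 0.76, the calcium pump Atp2a2 by 0.65 and Bin1, which shapes the transverse tubules, by 1.26.

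At the neuromuscular junction 3 of 13 measured genes rose, the acetylcholine receptor subunits Chrna1 (2.63) and Chrnd (1.66) and the agrin receptor Lrp4 (0.57). Musk, the kinase that Lrp4 works with, read 106, 94.1 and 103 CPM at day 7 and 103, 70.9 and 94.8 CPM at day 14 and was not called, and these values overlapped. In the dystrophin complex 3 of 18 measured genes rose, among them the syntrophin Sntb1 (1.56) and Sspn. Leaving out any 1 of the 6 libraries, T7-RA replicate 1, 2 or 3 or T14-RA replicate 1, 2 or 3, left 1 of the 3, and the calls of Sspn and of Lrp4 were lost each time. Of 18 genes of fusion and adhesion, Mymk (1.08), the membrane protein that drives fusion, Itga7 (0.86), a laminin receptor of the fibre, and Dysf (0.55), which serves membrane repair, rose. Adam12 (-1.19), a metalloprotease of fusing myoblasts, and Cdh15 (-0.50), the M-cadherin that joins myoblasts, fell. Without T7-RA replicate 1 or 2 or T14-RA replicate 2 or 3, 1 gene of this list fell, Adam12. Rises in the list numbered 2 without T7-RA replicate 1 or 2 or T14-RA replicate 1 or 3. They numbered 2 with thinned counts and 1 with limma-trend.

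Of 12 myogenic transcription factors, 3 rose. Myog, myogenin, read 415, 407 and 485 CPM at day 7 and 639, 645 and 632 CPM at day 14, a log2 change of 0.55 (SE 0.10, edgeR adjusted p = 7.37e-05). Mef2c read 48.9, 52.4 and 77.0 CPM and then 147, 124 and 136 CPM, a log2 change of 1.21, and Mef2a, whose groups overlapped, had a log2 change of 0.76. Without T7-RA replicate 1 or 2 or T14-RA replicate 1, 1 of the 3 was called, Mef2c. Myod1, the determination factor, read 76.3, 91.4 and 95.9 CPM at day 7 and 63.7, 95.6 and 81.3 CPM at day 14 and did not pass the test.

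Calls among metabolic genes were few and lay mostly in muscle isoforms. In glycolysis and glycogen use, 5 of 34 measured genes rose, namely Pgam2, Pygm, the muscle enolase Eno3 (1.27), the muscle glycogen synthase Gys1 (0.97) and the aldolase Aldoa (0.64). Of 6 genes of the creatine system and myoglobin, 3 rose, Ckmt2, Mb and the cytosolic muscle creatine kinase Ckm (2.27). Among 45 subunits of respiratory complexes II to V, the muscle isoforms Cox6a2 and Cox8b (2.27) were the only calls, a share of 4.44% against 2.95% of all genes, and the list had a median of 0.29. None of the 35 subunits of complex I was called, with a median of 0.30. Of 46 genes of fatty acid oxidation and the citrate cycle 2 were called, among them Hadha (0.47) of fatty acid oxidation, a share of 4.35%. None of the list was called without T7-RA replicate 1 or 2 or T14-RA replicate 1, and 1 was without T7-RA replicate 3 or T14-RA replicate 2 or 3. No member was called among 71 mitochondrial ribosomal proteins, 82 cytosolic ribosomal proteins or 35 proteasome subunits.

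**Figure D3:**
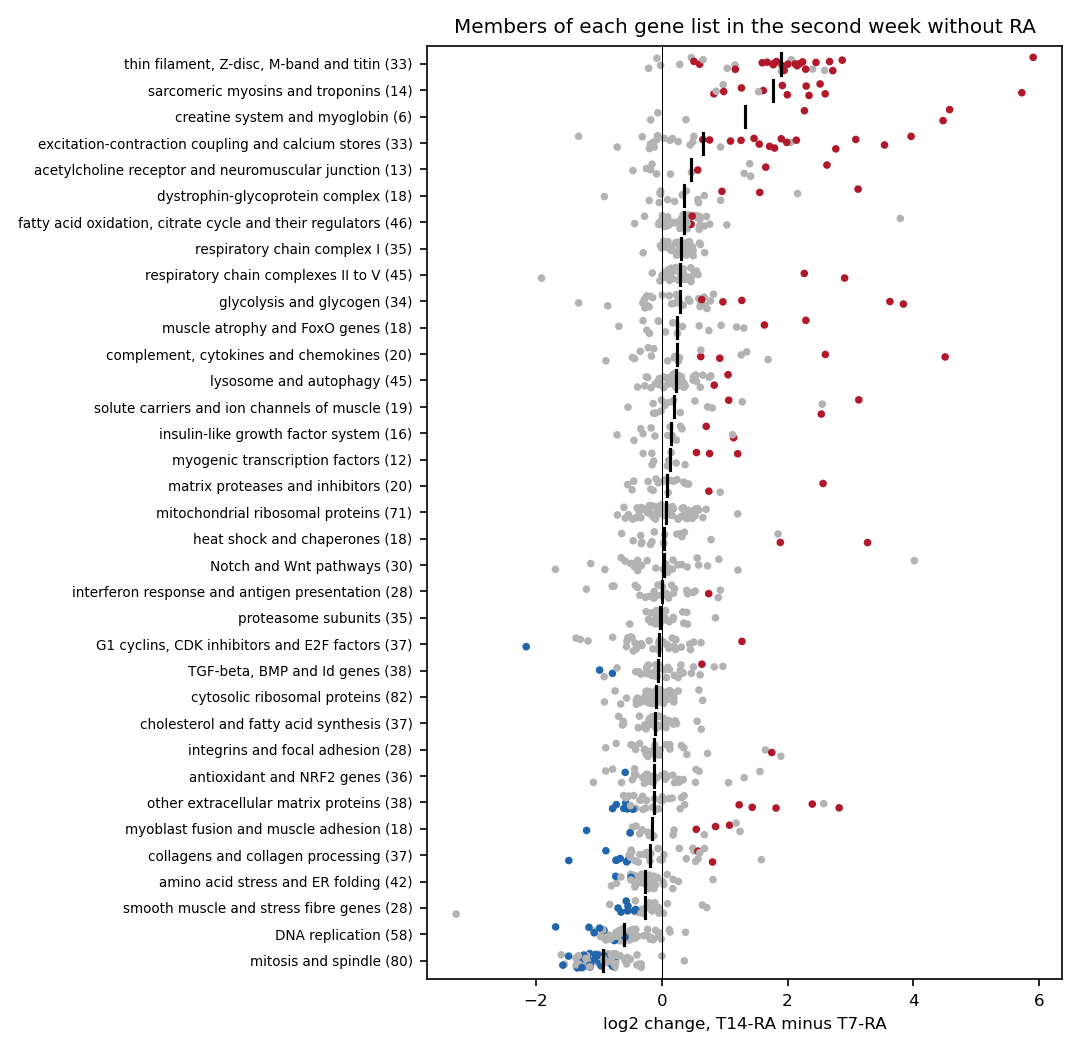
Log2 change between T7-RA and T14-RA of the measured members of each gene list, with the number measured in parentheses; coloured points are members called higher or lower, grey points were not called and bars mark the list medians. The medians of the sarcomere lists are 1.77 and 1.90, and those of the mitosis and DNA replication lists are -0.93 and -0.59.

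On the falling side, genes of mitosis and the spindle formed the largest group. Of 80 measured members, 25 fell and none rose, the median log2 change was -0.93 and 78 of the 80 changes were below 0. Without T14-RA replicate 1, 13 of the list were called. Ect2, an exchange factor needed for cytokinesis (2q24), read 58.5, 63.2 and 63.9 CPM at day 7 and 20.4, 23.0 and 18.6 CPM at day 14, a log2 change of -1.57 (SE 0.26, edgeR adjusted p = 6.93e-06). Mki67, the proliferation antigen Ki-67, read 402, 341 and 462 CPM and then 203, 198 and 198 CPM, a log2 change of -1.003 (SE 0.17, edgeR adjusted p = 2.63e-04). Neither gene had overlapping days, as was so for 341 of the 342 called genes. The condensin subunits Ncapg (-1.48), Smc2 (-0.87) and Smc4 (-0.79) compact the chromosomes, Tacc3 (-1.33), Tpx2 (-0.73), Kif11 (-1.27) and Prc1 (-1.14) serve the spindle, and Cdca8 (-1.34), Plk1 (-1.14), Cdc20 (-1.24) and Cdk1 (-1.10) control the steps of division. The other members that fell were Anln, Aspm, Cdca3, Cenpe, Cenpf, Ckap2, Espl1, Kif20a, Kif22, Kif23, Kpna2 and Stmn1, with log2 changes between -1.22 and -0.83. The list took 0.594% of all counts in T7-RA (SD 0.0127, n = 3) and 0.319% in T14-RA (SD 0.0081, n = 3).

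DNA replication genes fell in 7 of 58 measured cases and none rose, with a median log2 change of -0.59. They were Cdt1 (-1.69), which loads the replicative helicase, its subunit Mcm5 (-0.75), Uhrf1 (-0.92), which maintains DNA methylation, the topoisomerase Top2a (-1.07), and Rrm1 (-0.58), Rrm2 (-0.99) and Tk1 (-1.16), which supply nucleotides. Without T7-RA replicate 1 or 2 or T14-RA replicate 1 or 3, 3 members were called, and without T7-RA replicate 3, 4 were. Among 37 G1 cyclins, CDK inhibitors and E2F factors, Gadd45a (1.28), a growth arrest gene, rose and Rbl1 (-2.15), the pocket protein p107, fell, so that 5.41% of the list was called against 2.95% of all genes. The Rbl1 call was lost when any 1 of the 6 libraries was left out (T7-RA replicate 1, 2 or 3, T14-RA replicate 1, 2 or 3), with relative log expression factors, DESeq2, limma-voom and the filterByExpr filter, and Rbl1 was not tested under the minimum of 10 counts in every library. Without T7-RA replicate 3 a second gene of the list rose. Cdkn1a, the inhibitor p21, read 336, 299.7 and 285 CPM at day 7 and 360.3, 356 and 359 CPM at day 14 and was not called (edgeR adjusted p = 0.282). Mastl, the mitotic kinase Greatwall, fell by 1.49 on the log2 scale.

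Promoter sequence, the 250 bases before the start, was taken from RefSeq (GRCr8, a later build than the Rnor_6.0 of the counts) for the 8608 of 11547 tested symbols that matched. On either strand, TTTGAA, the core of the cell cycle homology region, was in 44.9% of 69 mitosis promoters, 10% of 50 DNA replication promoters and 10% of all tested promoters. CCAAT, the motif of NF-Y, was in 68.1%, 50% and 36.1% of the same sets. An E2F site, here TTTCCCGC, TTTCGCGC, TTTGCCGC or TTTGGCGC, was in 4.35%, 22% and 3.5%. Among the 108 promoters of genes called lower the shares were 23.1% for TTTGAA and 52.8% for CCAAT. These are counts of letters and show no binding. The 4 mitosis genes among the 12 largest falls all held both TTTGAA and CCAAT, and are shown 5′ to 3′ on the strand of the gene with both motifs, or their reverse complements, in capitals. In Cdca8 a TTTGAA and a reversed CCAAT overlap by 1 base.

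Ncapg, chr14:69645446-69645695, minus strand: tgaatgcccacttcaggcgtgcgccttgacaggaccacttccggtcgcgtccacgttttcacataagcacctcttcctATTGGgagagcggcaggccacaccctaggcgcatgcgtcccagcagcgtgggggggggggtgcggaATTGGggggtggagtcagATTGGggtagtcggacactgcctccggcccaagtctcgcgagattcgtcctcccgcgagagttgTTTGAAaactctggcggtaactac
Tacc3, chr14:81289699-81289948, minus strand: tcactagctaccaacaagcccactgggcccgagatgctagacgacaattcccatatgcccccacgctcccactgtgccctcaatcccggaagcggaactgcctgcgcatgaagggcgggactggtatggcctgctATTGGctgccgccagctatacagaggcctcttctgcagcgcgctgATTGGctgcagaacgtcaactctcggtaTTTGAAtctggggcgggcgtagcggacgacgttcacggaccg
Ect2, chr2:111966627-111966876, minus strand: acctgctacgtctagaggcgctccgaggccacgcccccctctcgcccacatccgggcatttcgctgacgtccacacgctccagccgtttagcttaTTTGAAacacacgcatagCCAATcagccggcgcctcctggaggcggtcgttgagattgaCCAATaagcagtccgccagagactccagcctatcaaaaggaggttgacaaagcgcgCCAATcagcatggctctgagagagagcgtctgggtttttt
Cdca8, chr5:142483200-142483449, minus strand: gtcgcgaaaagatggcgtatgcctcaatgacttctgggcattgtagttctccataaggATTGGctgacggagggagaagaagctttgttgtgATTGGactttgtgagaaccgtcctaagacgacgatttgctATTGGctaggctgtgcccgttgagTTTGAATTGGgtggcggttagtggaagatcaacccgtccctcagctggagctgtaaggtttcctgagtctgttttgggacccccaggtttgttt

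The place of TTTGAA differed between these genes. Counted from the start site, it began at -24 in Ncapg, -42 in Tacc3, -94 in Cdca8 and -155 in Ect2.

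In the thin filament and Z-disc list, CAGCTG, an E-box of the kind that myogenic factors bind, was in 29.6% of 27 promoters, against 12.1% of all tested promoters, and a MEF2 site was in 25.9%, against 1.32%. In the list of myosins and troponins CAGCTG was in 3 of 11 promoters (27.3%), and a MEF2 site and a CArG box were in 1 each (9.09%). Among the 162 promoters of genes called higher the shares were 21% and 10.5%, and none of the 108 promoters of genes called lower held a MEF2 site. A CArG box, the motif of serum response factor, was in 7.41% of the thin filament and Z-disc list and 1.24% of all. Over all 27457 RefSeq promoters the shares were 11.9% for CAGCTG, 3.07% for the MEF2 site, 1.5% for the CArG box, 16% for TTTGAA, 34.3% for CCAAT and 1.81% for the E2F site. Cox6a2, Klhl41 and Synpo2l, which were called higher, were picked because they hold both CAGCTG and a MEF2 site, and are shown with both in capitals.

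Cox6a2, chr1:192219717-192219966, minus strand: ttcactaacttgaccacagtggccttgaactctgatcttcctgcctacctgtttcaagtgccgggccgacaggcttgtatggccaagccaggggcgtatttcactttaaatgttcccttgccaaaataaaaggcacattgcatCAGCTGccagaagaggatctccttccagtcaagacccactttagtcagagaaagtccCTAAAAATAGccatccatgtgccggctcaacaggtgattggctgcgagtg
Klhl41, chr3:74841868-74842117, plus strand: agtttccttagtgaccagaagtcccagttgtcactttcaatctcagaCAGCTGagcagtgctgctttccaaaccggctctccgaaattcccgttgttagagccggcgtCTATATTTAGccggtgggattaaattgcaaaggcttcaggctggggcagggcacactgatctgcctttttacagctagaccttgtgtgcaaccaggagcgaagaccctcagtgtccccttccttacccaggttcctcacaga
Synpo2l, chr15:3684760-3685009, plus strand: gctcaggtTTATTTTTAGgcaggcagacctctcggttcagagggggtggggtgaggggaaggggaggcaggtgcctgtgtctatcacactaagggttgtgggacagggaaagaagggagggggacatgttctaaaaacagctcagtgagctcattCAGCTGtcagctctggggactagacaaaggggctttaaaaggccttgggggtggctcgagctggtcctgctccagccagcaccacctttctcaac

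Klhl41, a Kelch protein that stabilizes the sarcomere, read 233, 258 and 298 CPM at day 7 and 901, 992 and 894 CPM at day 14, a log2 change of 1.83. Synpo2l, an actin-associated protein of the Z-disc, read 62.0, 76.6 and 75.5 CPM and then 235, 184 and 222 CPM, a log2 change of 1.60. Cox6a2 read 10.7, 17.5 and 4.36 CPM at day 7 and 79.3, 86.8 and 86.4 CPM at day 14. In none of these genes did the days overlap, as was so for 341 of the 342 called genes.

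The extracellular matrix moved in both directions. Among 37 collagens and collagen processing genes, 2 rose and 7 fell. Without T7-RA replicate 1, 4 fell, and without T7-RA replicate 2 or 3 or T14-RA replicate 1 or 3, 1 rose. P4ha3 (-1.48) and Plod2 (-0.89), which hydroxylate collagen, Lox (-0.73), which crosslinks it, Serpinh1 (-0.66), its chaperone, and the chains Col8a2 (-0.72), Col4a5 (-0.56) and Col4a1 (-0.54) fell. Col3a1, a fibrillar collagen, read 5367, 5031 and 5752 CPM at day 7 and 7920, 8248 and 7928 CPM at day 14, a log2 change of 0.58 (SE 0.08, edgeR adjusted p = 3.00e-07), and Col27a1 rose by 0.81. Col1a1 was not called (log2 change -0.17, edgeR adjusted p = 0.518). Of the 10 fibroblast markers measured of 16 listed, Col3a1, Dcn and Lum rose, and the whole list took between 3.01% and 3.32% of counts in T7-RA and between 3.11% and 3.18% in T14-RA. Col1a1 made up most of that share, with means of 22730 CPM in T7-RA and 20180 CPM in T14-RA. The Col3a1 means were 5383 and 8032 CPM, so the share says little about the other members.

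Of 38 other matrix proteins, 5 rose and 6 fell. The small proteoglycans Dcn, Lum (2.39) and Fmod (1.23) rose, as did Thbs2 (1.82) and Tnc (1.44), which modulate cell adhesion. Fbln5 (-0.72) and Eln (-0.55) of the elastic fibre, Ltbp2 (-0.57), Nid1 (-0.60) of the basement membrane, Ccn4 (-0.78) and fibronectin, Fn1 (-0.46), fell. Without T7-RA replicate 1 these counts were 3 and 2, without T7-RA replicate 2 or T14-RA replicate 2 they were 3 and 3, without T14-RA replicate 1 the rises were 3, and without T14-RA replicate 3 the falls were 3. Mmp2, a gelatinase, read 38.2, 41.7 and 58.1 CPM at day 7 and 270.3, 267 and 273 CPM at day 14, a log2 change of 2.57 (SE 0.20, edgeR adjusted p = 5.47e-13).

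Genes of smooth muscle and stress fibres fell in 7 of 28 cases and none rose. Acta2, smooth muscle alpha-actin, read 12720, 12990 and 12350 CPM at T0, 3579, 3807 and 2749 CPM in T7-RA and 2473, 2534 and 2486 CPM in T14-RA, a second-week log2 change of -0.44 (SE 0.09, edgeR adjusted p = 2.96e-04). The others were Tagln2 (-0.69), Cald1 (-0.65), Tagln (-0.56), Flna (-0.54), Tpm4 (-0.54) and Actb (-0.41), all of the actin cytoskeleton. Without T7-RA replicate 2, T14-RA replicate 1 or T14-RA replicate 2, 3 of the list were called, and without T7-RA replicate 1, 4 were.

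The largest falls were those of C1qtnf3, Susd5 and Smoc1, ranked among called genes with separate days and a mean of at least 20 CPM. C1qtnf3, a secreted protein related to C1q, read 65.6, 73.9 and 42.1 CPM at day 7 and 9.61, 17.7 and 11.9 CPM at day 14 (log2 change -2.25, SE 0.31, edgeR adjusted p = 1.01e-07). Susd5 read 487, 445 and 478 CPM at T0, 67.99, 73.9 and 49.4 CPM at day 7 and 15.6, 14.17 and 13.6 CPM at day 14, a second-week log2 change of -2.12. Smoc1 (-1.90), a matricellular protein, Tspan18 (-1.44), a tetraspanin, and Ddah1 (-1.28), which degrades methylarginines, were also among the 12.

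Fewer genes were called in the signalling, stress and immune lists. The share called was near the 2.95% of all genes in the lists of lysosomes and autophagy (4.44%), amino acid stress and folding (4.76%), antioxidant genes (2.78%), interferon and antigen presentation (3.57%) and integrins and focal adhesion (3.57%), and the calls named from these describe single genes, not the lists. Igfbp5 (1.14) and Igf2 (0.71) rose among 16 genes of the insulin-like growth factor system. Complement and cytokine genes rose in 4 of 20 cases, among them Il33 (2.60), C1s (0.92) and Cxcl12 (0.62), and B2m (0.75), a subunit of MHC class I, was called among 28 interferon and antigen presentation genes. Among 38 TGF-beta and BMP genes, Smad3 (0.64) rose while 2 fell, among them Fstl1 (-0.78). The small heat shock proteins Hspb7 (1.89) and Hspb3 rose among 18 chaperones, Trim54 (2.29), a sarcomeric ubiquitin ligase, and Eda2r (1.63) among 18 atrophy genes, and Bnip3 (1.06) and Gabarapl2 (0.84) among 45 genes of lysosomes and autophagy. The chaperone Hsp90b1 (-0.49) and Psat1 (-0.73), of serine synthesis, fell among 42 genes of amino acid stress and folding, and 1 of 36 antioxidant genes fell. Of 19 channels and carriers 3 rose, among them the water channel Aqp1 (1.07) and the potassium channel Kcnn3 (3.13), and Itga8 (1.75) among 28 integrins and focal adhesion genes. None of 30 Notch and Wnt genes was called. Several of these counts changed when 1 library was left out. The Smad3 call was lost when any 1 of the 6 libraries was left out and with DESeq2, limma-voom, limma-trend and thinned counts, and 1 gene of its list fell without T7-RA replicate 2 or 3 or T14-RA replicate 1 or 2. In the lysosome list 0 genes were called without T7-RA replicate 1 or 2 or T14-RA replicate 2, and 1 was without T7-RA replicate 3 or T14-RA replicate 1 or 3. In the amino acid stress list 0 were called without T7-RA replicate 2 or T14-RA replicate 3, and 1 was without T14-RA replicate 1 or 2. The antioxidant call was lost without any T7-RA replicate (1, 2 or 3) and without T14-RA replicate 1 or 3, and the Itga8 call without T7-RA replicate 1 or 3 or T14-RA replicate 1 or 2. Only Hspb7 was called among the chaperones without T7-RA replicate 1 or 2 or T14-RA replicate 1 or 2, and only Trim54 among the atrophy genes without T7-RA replicate 2 or T14-RA replicate 1 or 3.

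The second week was then set against the first, asking whether a gene changed by a different amount from T7-RA to T14-RA than from T0 to T7-RA. The difference, second-week minus first-week log2 change, was called in 150 genes (1.3%), above 0 in 52 (0.449%) and below 0 in 98 (0.847%). With scaling by library size only, the split was 40 above and 133 below, and the median difference of all genes was -0.15 in place of -0.04. Both weeks use the T7-RA libraries, so their values are given side by side. Without T7-RA replicate 1, 96 genes were called, 29 of them above 0, and without T7-RA replicate 3, 85 were, 28 above and 57 below. Those above 0 numbered 32 without T7-RA replicate 2 and 88 without T0 replicate 2. In simulated counts this contrast called 4.5% of 200 genes given a difference of 1 and 45% of 200 given one of 2, fewer than for the second-week change, so a difference that was not called is not shown to be absent.

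Genes of cholesterol and fatty acid synthesis were the list with the most calls below 0. Of 37 measured, 18 had a called difference, all below 0, and none was called in the second week. Their median log2 change was 1.11 in the first week, with 23 called higher, and -0.10 in the second. Hmgcs1, an early enzyme of cholesterol synthesis, read 169.7, 176 and 195 CPM at T0, 663, 653 and 693 CPM in T7-RA and 622, 558 and 586 CPM in T14-RA. Scd, a fatty acid desaturase, read 52.4, 71.3 and 48.2 CPM, then 543, 464 and 593 CPM, then 589.8, 466 and 528 CPM, a difference between the weeks of -3.22 (SE 0.21, edgeR adjusted p = 6.45e-19). The sterol enzymes Idi1 (difference -2.86), Sqle (-1.65) and Dhcr7 (-1.80) were called as well. In each of these genes every day 7 and day 14 culture lay above every T0 culture.

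Genes with the largest differences below 0 had risen in the first week. Igf1, a growth factor of muscle, read 4.14, 0 and 0 CPM at T0, 45.3, 26.9 and 47.9 CPM in T7-RA and 36.0, 31.9 and 18.6 CPM in T14-RA. Olfml2a (difference -4.51), AC095947.1 (-3.90) and the adenosine receptor Adora1 (-3.27) were likewise called higher in the first week and not called in the second, and Chrnd (-3.18) rose in both. The largest differences above 0 included those of Casq1, Myh4, Hspb7, Xirp1 and Prrx2. Xirp1, an actin-binding repeat protein, read 34.5, 48.8 and 39.8 CPM, then 48.9, 28.2 and 53.7 CPM, then 241, 174 and 198 CPM, and was called in the second week (log2 change 2.24) but not in the first (0.11).

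The sarcomere lists differed in their medians by week. The myosins and troponins had a median log2 change of 4.20 in the first week, or 2.83 with genes at the floor set to their bound, and 1.77 in the second. The thin filament and Z-disc list had 0.74 in the first week, or 0.63 with the bound, and 1.90 in the second. In that list 6 genes had a called difference above 0 and 1 below, while among the myosins and troponins 1 was above and 5 below. Mitosis genes had medians of -0.33 in the first week and -0.93 in the second, with 3 called differences, all below 0. DNA replication genes had medians of -0.78 and -0.59, with 22 members called lower in the first week, 7 in the second and no called difference.

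**Figure D4:**
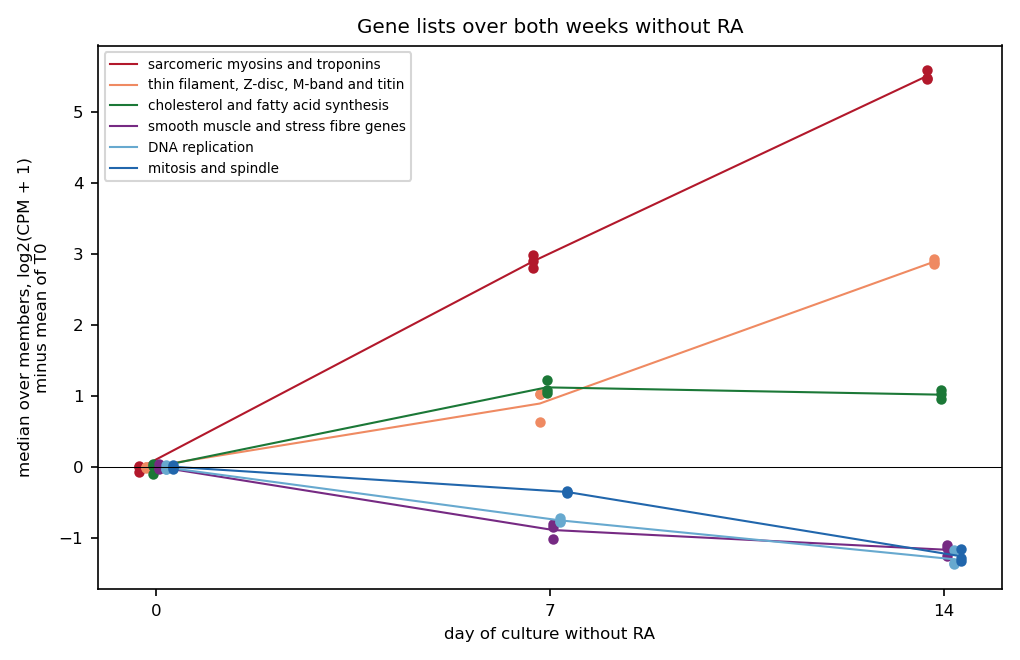
Median over the members of 6 gene lists of log2(CPM + 1) minus the mean of T0 (vertical) against the day of culture without RA (horizontal), with a point for each culture. The myosins and troponins lie between 5.47 and 5.59 at day 14, the mitosis list between -1.32 and -1.15, and cholesterol and fatty acid synthesis between 1.05 and 1.24 at day 7 and between 0.96 and 1.09 at day 14.

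The same interval with RA, T14+RA against T7+RA, shares no library with the week without RA and had 540 called genes (4.67%), 278 higher and 262 lower. Of the 342 genes called without RA, 330 had a change of the same sign with RA (96.5%). The same share over all tested genes was not computed, so this figure has no baseline beside it. Called in the same direction in both were 198 genes, which is 57.9% of the calls without RA and 36.7% of those with RA. The genes higher without RA had a median log2 change of 0.90 with RA, and the genes lower without RA a median of -0.88. With RA 39 mitosis genes, 9 myosins and troponins up and 18 genes of the thin filament list up were called, against 25, 11 and 21 without RA, and the differences between these counts were not tested.

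The difference between the changes without and with RA was called in 25 genes (0.216%), 14 above 0 and 11 below, and those below numbered 7 without T7-RA replicate 2, T14-RA replicate 2 or T7+RA replicate 1. In simulated counts it called 9.5% of 200 genes given a difference of 1 and 57% of 200 given one of 2. Ca3, a carbonic anhydrase of skeletal muscle, had the lowest p. It read 2683, 2595 and 3124 CPM in T7-RA and 6191, 6371 and 6184 CPM in T14-RA, but 2319, 2385 and 2508 CPM in T7+RA and 1460, 1421 and 1300 CPM in T14+RA. The log2 change was 1.16 without RA and -0.78 with RA, a difference of 1.94 (SE 0.12, edgeR adjusted p = 1.65e-19), and Ca3 was the 1 gene of the 342 called in opposite directions. Casq1, which rose by 3.09 without RA, read 12.8, 22.8 and 27.4 CPM in T7+RA and 32.8, 26.7 and 29.0 CPM in T14+RA, a difference of 2.56. Mb read 4.28, 10.7 and 8.57 CPM and then 16.4, 15.7 and 16.3 CPM with RA, a difference of 3.45. Klhl41 (1.83 without and 0.70 with RA), Myh4 (1.27 and -0.27) and Igf2 (0.71 and -0.25) were the other genes that rose without RA and had a lower change with it.

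In the other direction, Igfbp5, a binding protein for the insulin-like growth factors, rose by 1.14 without RA and by 2.73 with it. Its values were 568, 554 and 716 CPM in T7-RA and 1392, 1199 and 1461 CPM in T14-RA, and 488, 418 and 502 CPM and then 3013, 2722 and 3599 CPM with RA. The glycoprotein Gpnmb (0.67 without and 2.01 with RA) and the secreted chaperone Clu (0.76 and 2.08) also rose more with RA. Ccdc80, a matrix protein, fell by 0.86 without RA and had a change of 0.05 with it. Scd and Igf1, not called in the second week without RA, rose by 1.49 and 2.88 with RA. On the side above 0, by contrast, Nid2 of the basement membrane had a change of -0.10 without RA and one of -2.20 with it, a difference of 2.10.

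**Figure D5:**
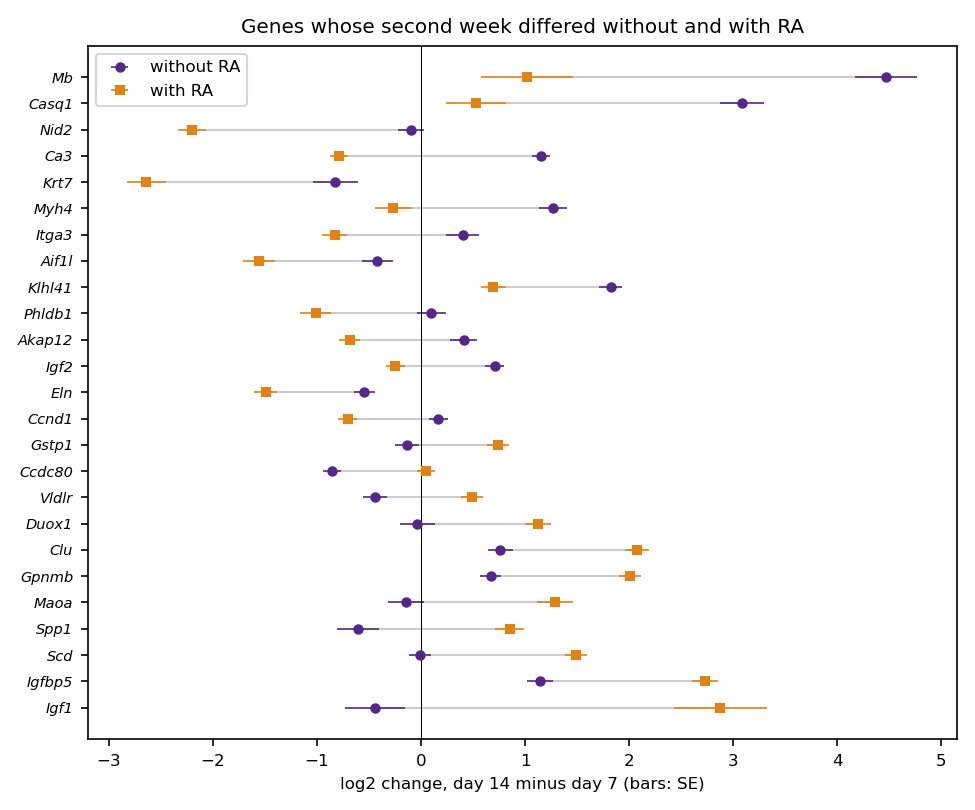
Log2 change between day 7 and day 14 without RA (circles) and with RA (squares) for the 25 genes whose changes differed at an edgeR adjusted p under 0.001, with bars of 1 SE. Mb stands at 4.47 without RA and 1.02 with it, and Igf1 at -0.44 and 2.88.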

How the data were processed

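Messenger RNA of 15 H9c2 cultures, 3 in each of 5 groups taken from the sample titles, was sequenced by the authors from stranded libraries. Reads were trimmed, aligned with HISAT2 to Rnor_6.0 and counted per gene with featureCounts by the authors, per the submitters' processing notes and the methods, and the versions of these tools and the strand setting are not given in the sources used here. The deposited file holds raw counts for 11574 genes, filtered by the authors to more than 20 counts summed over the libraries (smallest sum 21).

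Counts were analysed here with edgeR 4.0.16 in R 4.3.3 (TMM, robust quasi-likelihood F test, 5 group means over all 15 libraries, Benjamini-Hochberg adjusted p under 0.001). The contrasts were T14-RA minus T7-RA, that change minus the T7-RA minus T0 change, and the second-week change without RA minus the change with RA. Library totals ran from 508397 to 1030820 counts. Replicates of T7-RA and T14-RA differed beyond sampling noise (chi-square per degree of freedom 1.07 to 1.53), and those of T0, which enter the contrast between weeks, differed more (2.06 to 3.08). The fit was tested on simulated data. Alternatives were DESeq2 1.42.0, limma 3.58.1 (voom and trend), other scalings and filters, thinning, a replicate block and leaving out each library. An exact permutation test of 3 against 3 cultures cannot go below 0.1 and was not used.

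Genes named were the 12 largest rises and 12 largest falls among called genes with separate groups and a mean of at least 20 CPM, the 6 largest each way for the difference between weeks, the 6 lowest p each way for the difference with RA, members of gene lists, and called genes with at most 3 counts in every day 7 or day 14 library. The members and lists were chosen with earlier results of these data known, so list counts describe the lists and are no independent evidence of a direction. Prss35 and the promoters shown for Cox6a2, Klhl41 and Synpo2l were chosen after their values or letters were seen. Some genes that met these rules are not reported here.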

Additional observations from a re-analysis of the deposited data

Results flagged for a closer look

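The second-week log2 change without RA minus that with RA differed from 0 in 25 genes by a test of the difference itself (edgeR adjusted p under 0.001, 3 cultures per group). It was below 0 for Igf1 (-3.32), Igfbp5 (-1.59), Scd (-1.50), Spp1 (-1.46), Maoa (-1.44), Gpnmb (-1.34), Clu (-1.31), Duox1 (-1.16), Vldlr (-0.93), Ccdc80 (-0.90) and Gstp1 (-0.88). It was above 0 for Ccnd1 (0.87), Eln (0.95), Igf2 (0.95), Akap12 (1.10), Phldb1 (1.11), Klhl41 (1.13), Aif1l (1.14), Itga3 (1.23), Myh4 (1.53), Krt7 (1.81), Ca3 (1.94), Nid2 (2.10), Casq1 (2.56) and Mb (3.45).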

How the results depend on the processing

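For the second week without RA, 342 genes were called, against 223 with limma-trend, 209 among genes with at least 10 counts in every library, 902 at an adjusted p under 0.05, 178 with a log2 change of at least 1, and 200 to 281 with a library left out. The other 8 alternatives gave 232 (DESeq2) to 493 (only the 6 libraries). For the difference between weeks (150 genes), limma-trend gave 98, an adjusted p under 0.05 gave 606, leaving out a library gave 85 to 204 (204 without T0 replicate 2), and the other 9 alternatives gave 115 to 199. For the difference with RA (25 genes), an adjusted p under 0.05 gave 86, leaving out a library 17 to 26 and the other 10 alternatives 18 to 28. The cause was not tested. Requiring at least 10 counts in every library, which removes genes near 0 at day 7, left 6 rising sarcomeric myosins and troponins of 11, 8 thin filament and Z-disc genes of 21 and 5 genes of excitation and calcium stores of 15.

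The labels do not say that same-numbered cultures belong together, and the cultures were treated as unpaired because same-numbered T7-RA and T14-RA cultures correlated at only 0.0102 to 0.105 in their deviations. A weak link stays possible, since these correlations averaged 0.0551 against -0.0276 for different numbers, 4 of 6 cultures correlated best with their own number, and same-numbered cultures of the other group pairs correlated at -0.0514 to 0.265. A replicate block gave 400, 199 and 28 calls in the 3 comparisons.

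Among 184 named genes called in the second week, 2424 of 2860 values under alternatives stayed past the threshold, none turned in sign, and 106 genes stayed past it in every alternative. Of 451 list medians, 11 moved beyond the spread between cultures and none of those turned in sign. Of the genes that were not called, 5 turned in sign around 0. Scd turned with relative log expression factors (0.00777), DESeq2 (0.00712), voom (0.00158) and at least 10 counts in every library (0.0136), and Myod1 with thinned counts (0.0516). With a library left out, Adora1 ranged from -0.405 to 0.0272, Duox1 from -0.123 to 0.106, Myod1 from -0.295 to 0.016, Phldb1 from -0.0173 to 0.223 and Scd from -0.0976 to 0.0709. Depth, at a median count of 24 per gene, limits what could be called among weakly expressed genes.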
